A study of Homo sapiens with 16 samples.

Results

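The genes examined here were 9 feedback regulators of RAS-MAPK signalling, the MAPK phosphatase genes DUSP1, DUSP2, DUSP4, DUSP5 and DUSP6, the Sprouty genes SPRY2 and SPRY4, and the Spred genes SPRED1 and SPRED2. They were listed by name as regulators of the pathway, with earlier results of these data known. Each was described by the ChIP-seq peaks that touched its gene body or the 50 kb on either side of it, a window chosen to hold the promoter and nearby candidate domain borders. Domain borders were not mapped here, and the window need not reach them. All 9 were found among 20162 protein-coding genes of GENCODE release 44 on hg19. Their windows covered 1.19 Mb and held 37 of the 76863 peaks of the series, which merged into 17 binding sites, all 17 of them CTCF sites and none a p53 site.

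MCF10A is an immortalised but non-tumorigenic line of human mammary epithelial cells. Parental MCF10A cells were compared with G12V cells, which are MCF10A cells that carry an overexpressed H-RAS Gv12 transgene brought in by lentiviral transduction beside a GFP vector and kept under hygromycin selection. Both cell types grew in medium with EGF, itself an activator of the pathway. CTCF and p53 were each measured by ChIP-seq in 2 libraries per cell type, every one with its own input, and the cells used for p53 had been exposed to Nutlin, which frees p53 from MDM2, before fixation. Nothing in the labels ties 2 libraries with the same replicate number to 1 culture, and the transduced cells were not described as clones.

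Active RAS switches on the RAF, MEK and ERK kinases, and ERK in turn induces genes whose products turn the pathway down. Dual specificity phosphatases (DUSPs) remove phosphate from MAP kinases; DUSP1, DUSP2, DUSP4 and DUSP5 act mainly in the nucleus and DUSP6 acts on ERK in the cytoplasm. Sprouty and Spred proteins act upstream, at the step where receptor signals reach RAS and RAF, and Spred proteins bring the RAS inactivator neurofibromin to the membrane. CTCF, with its array of zinc fingers, occupies insulators and marks many borders between chromatin domains. p53 is a stress-activated transcription factor, and DUSP1, DUSP2, DUSP4 and DUSP5 have been described as its targets in other settings.

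The sequences below, read from GRCh37, the same assembly as hg19, belong to the sites on which the results turn. Each is shown 5′ to 3′ on the strand that carries the best match to the core of the CTCF motif, with a match of at most 1 mismatch in capitals. A site is named by its gene and by the distance of its strongest summit from the start of that gene, positive in the direction of transcription. The sites upstream of SPRY2 and DUSP1 and at DUSP2 were in all 4 CTCF peak lists. The DUSP5 site was in 1 list and the SPRED1 site, in the 3′ part of the transcript, in 2.
SPRY2 -1.9 kb, chr13:80917136-80917195, plus strand: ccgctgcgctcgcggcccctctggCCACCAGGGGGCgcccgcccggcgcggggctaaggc
DUSP2 +28.2 kb, chr2:96782883-96782942, minus strand: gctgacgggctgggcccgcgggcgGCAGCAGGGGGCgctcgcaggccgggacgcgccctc
DUSP1 -0.9 kb, chr5:172199105-172199164, plus strand: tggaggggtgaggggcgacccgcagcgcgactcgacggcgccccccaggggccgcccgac
DUSP5 +49.5 kb, chr10:112307085-112307144, minus strand: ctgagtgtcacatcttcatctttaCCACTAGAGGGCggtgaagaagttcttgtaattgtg
SPRED1 +101.7 kb, chr15:38646702-38646731, minus strand: ggaaatcatCCAGTAGGTGGTgctgaagct
The SPRY2 and DUSP5 sequences matched the motif core at every letter, those of DUSP2 and SPRED1 had 1 mismatch, and the best match at the DUSP1 site had 2, so that it carries no capitals and is centred on the summit. The SPRED1 match lay 67 bp from the summit, against 18, 30 and 11 bp for those of SPRY2, DUSP2 and DUSP5.

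Within 150 bp centred on the summit, 12 of the 17 sites near the 9 genes held the CTCF motif, 70.6% against 52.1% of all 29064 CTCF sites and 1.22% of windows placed 2000 bp beside those summits. It was present at 3 of the 4 sites found in all 4 libraries, where the share over all such sites was 67.5%, and at 4 of the 7 sites found in 1 library, against 35.9%. A p53 motif and the AP-1 motif TGACTCA, or TGAGTCA on the other strand, were present at 0 of the 17 sites, against 0.599% and 2.23% of all CTCF sites. GC content varied with position. At the 3 sites within 2 kb of the starts of DUSP1 and SPRY2 it was 67.3%, 75.3% and 74.7%, at DUSP2 +28.2 kb it was 77.3%, and at the remaining 13 it lay between 42% and 62%, with 53.3% at DUSP5 +1.8 kb.

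The 8 peak lists differed in length more within a cell type than between cell types. The CTCF lists of MCF10A replicates 1 and 2 held 11346 and 20136 peaks and those of G12V replicates 1 and 2 held 12004 and 27678. The p53 lists held 1718, 885, 477 and 2619 in the same order. The depth at which the peaks had been called, recovered from the fold enrichment and p-value of each peak, lay between 10.7 and 13.5 M reads for CTCF and between 9.26 and 23.9 M reads for p53. A ChIP library deeper than its input had been scaled down to that depth, by 0.6478 in CTCF MCF10A replicate 1 (18.6 M reads before scaling), by 0.9369 to 0.9939 in the other CTCF libraries and by 0.7213 in p53 G12V replicate 2. For these reasons a peak is given below by its percentile within its own list, where 100 is the strongest by −log10 q. The fragments at a summit are counts before scaling, except at the sites of all 4 libraries, where they are given at calling depth.

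The number of CTCF peaks near the 9 genes had the same order as list length. There were 4 in MCF10A replicate 1, 13 in MCF10A replicate 2, 6 in G12V replicate 1 and 14 in G12V replicate 2, so both replicate 2 libraries lay above both replicate 1 libraries and the cell types overlapped. The mean was 8.5 ± 6.36 (SD, n = 2) in MCF10A and 10 ± 5.66 (SD, n = 2) in G12V cells, a difference of 1.5 peaks (two-sided exact permutation test over libraries, p = 0.667, where 0.333 is the smallest p that 2 against 2 allows). As a share of each list these peaks made up 0.0353%, 0.0646%, 0.05% and 0.0506%. The mean shares were 0.0499% ± 0.0207 in MCF10A and 0.0503% ± 0.000423 in G12V cells (SD, n = 2 each, exact p = 1). Near these genes, then, neither the number nor the share of CTCF peaks differed between cell types by more than the libraries of 1 cell type differed from each other. The difference in number turned to -3 without MCF10A replicate 1 and to -2.5 without G12V replicate 2.

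**Figure D1:**
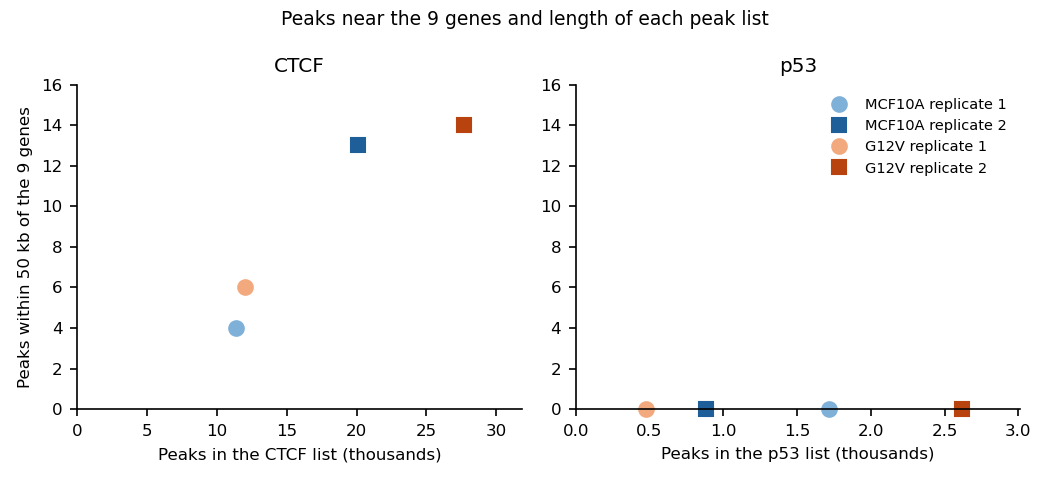
Peaks within 50 kb of the 9 genes (vertical axis) against the number of peaks in the library's list (horizontal axis, in units of 1000 peaks), for CTCF on the left and p53 on the right, 1 point per library. The CTCF libraries ran from 4 peaks in the list of 11346 to 14 in the list of 27678, and all 4 p53 libraries lie at 0.

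Of the 9 genes, 7 had a CTCF site in the window in at least 1 library, where 85.5% of all protein-coding genes did, and 4 had a site found in all 4 libraries, where 51.6% of all genes did. The 17 sites came to 14.3 per Mb of window against 9.39 per Mb over chromosomes 1 to 22, X and Y, which include regions far from genes. Per window, the median was 2 CTCF sites for the 9 genes and 2 for all protein-coding genes. Of the 17 summits, 11 were intergenic, 4 intronic, 1 in a coding exon and 1 in a UTR, and 4 lay in the promoter of a protein-coding gene, taken as 1000 bp before to 500 bp after its start. The nearest start of a protein-coding gene was that of the member at 9 of the 17. Most windows held no other protein-coding gene, the exceptions being those of DUSP2, with ADRA2B, ASTL and STARD7, and SPRED2, with ACTR2.

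By library, 4 of the 17 sites were found in all 4 libraries, against 27.5% of all CTCF sites, and 7 in a single library, against 29.7%. No site near these genes was in both MCF10A libraries and neither G12V library, a class that held 0.261% of all CTCF sites, and none was in both G12V libraries and neither MCF10A library, a class of 3.33%. The other 6 sites joined the replicate 2 libraries of both cell types. Those libraries alone held 4 of them, a pattern of 19.1% of all CTCF sites. The other 2 had G12V replicate 1 added, a pattern of 8.9%.

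**Figure D2:**
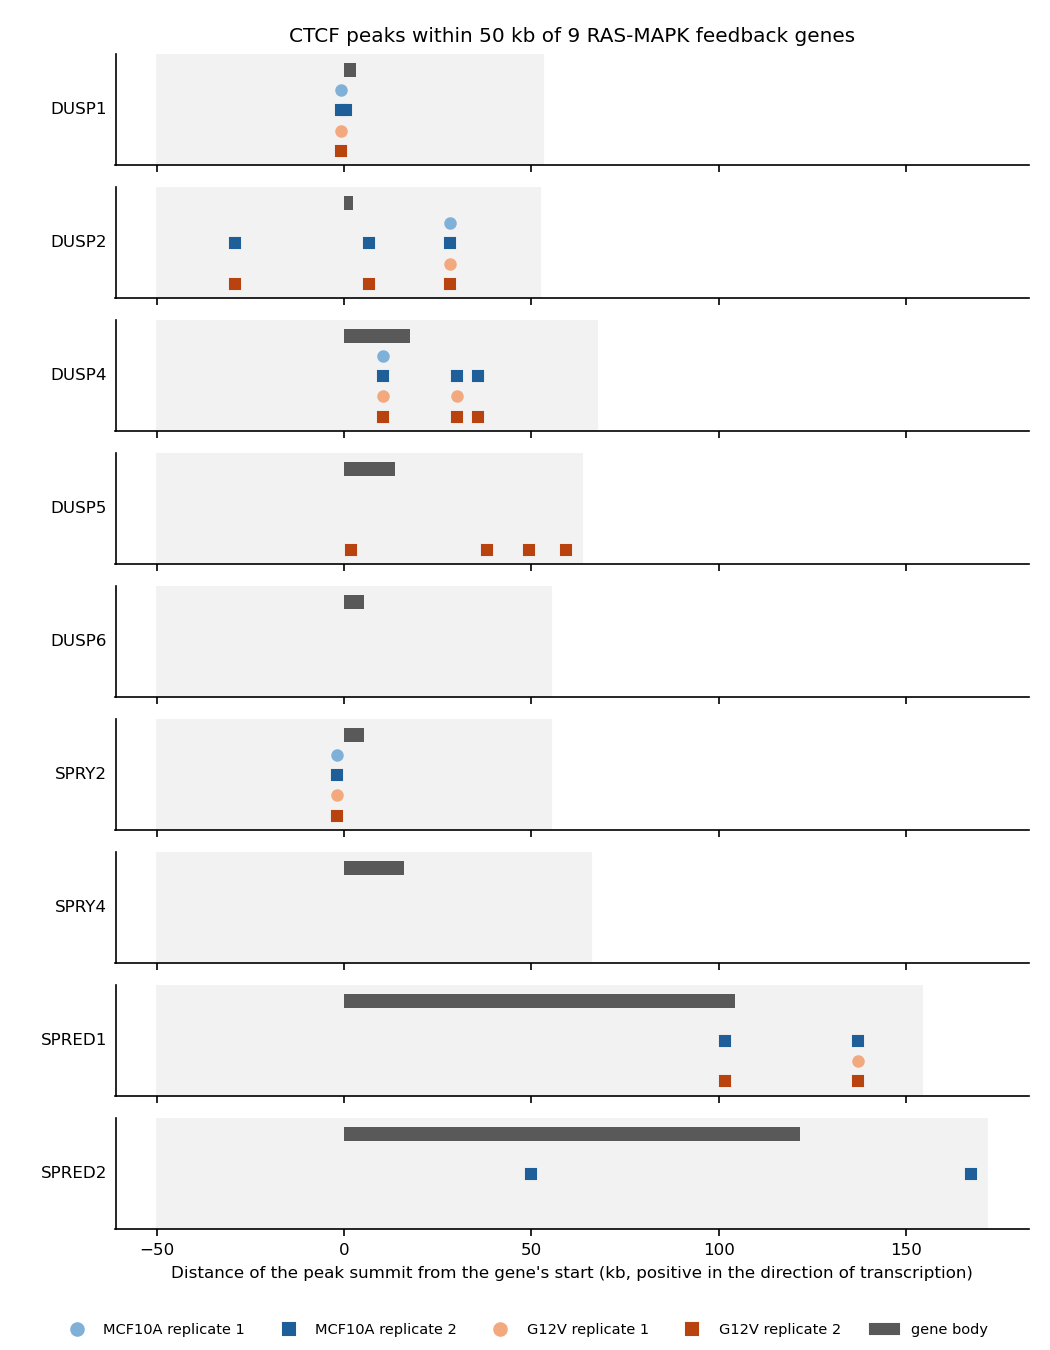
CTCF peaks in the windows of the 9 genes, 1 panel per gene, with the distance of the summit from the gene's start in kb on the horizontal axis and 1 row of points per library. Grey shading marks the window and the dark bar the gene body. The sites shared by all 4 libraries lie at DUSP1, DUSP2, DUSP4 and SPRY2, DUSP5 has peaks in G12V replicate 2 alone, and DUSP6 and SPRY4 have none.

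DUSP1, the immediate early phosphatase of ERK, JNK and p38, had a CTCF site at its promoter, 937 bp before the start of the gene. Its peaks stood at percentiles 45.8 and 85.1 in MCF10A replicates 1 and 2 and 82.5 and 60.2 in G12V replicates 1 and 2. The G12V values both lay inside the MCF10A range (mean 65.4 ± 27.8 against 71.3 ± 15.8, SD, n = 2 each, exact permutation p = 1). At calling depth the summits held 23.3, 43.7, 29.8 and 42.2 fragments, at folds over local background of 5.5, 11.8, 8.08 and 9.01. A second peak, 453 bp inside the gene in a coding exon, was listed only in MCF10A replicate 2, at percentile 4.16 with 17 fragments, so it was among the weakest of that list. Its sequence, shown because it has the motif that the promoter site lacks at the same limit, had 1 mismatch.
DUSP1 +0.5 kb, chr5:172197703-172197762, plus strand: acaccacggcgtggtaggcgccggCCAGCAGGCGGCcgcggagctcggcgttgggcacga

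DUSP2, a nuclear phosphatase best known from activated lymphocytes, had 3 CTCF sites in its window. The one in all 4 libraries lay 28.2 kb past the start of the gene, at the promoter of ADRA2B, the gene of an adrenergic receptor, 633 bp before its start. It stood at percentiles 41.2 and 66.1 in MCF10A and 85.8 and 71.3 in G12V cells, the only shared site of the 4 at which the cell types did not overlap. The mean was 53.7 ± 17.6 in MCF10A and 78.6 ± 10.3 in G12V cells (SD, n = 2 each), a difference of 24.9 at the smallest p the exact permutation test allows, 0.333. Both G12V percentiles were above both MCF10A percentiles at 20.9% of the 8006 CTCF sites of all 4 libraries, and the reverse order held at 9.54%, so 1 site of 4 in the first order is close to the background. The fragments at its summit at calling depth, 18.8, 35.2, 22.9 and 44, did not separate the cell types. The site at DUSP2 +6.6 kb, in the promoter of ASTL, and that at DUSP2 -29.3 kb were listed only in the replicate 2 libraries. The first stood at percentile 43.1 in MCF10A and 38 in G12V cells, with 21 fragments in both, and the second at 86.1 and 65.4, with 41 and 40 fragments.

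DUSP4, a nuclear phosphatase of ERK and JNK, had a CTCF site in an intron, 10.3 kb past its start, at percentiles 45.1 and 83.3 in MCF10A and 81.7 and 88.3 in G12V cells. The ranges overlapped (64.2 ± 27 against 85 ± 4.66, SD, n = 2 each, exact permutation p = 0.667), and the summits held 18.1, 39, 27.8 and 53.4 fragments at calling depth. Beyond the end of the gene, the site at +30.1 kb was in the lists of MCF10A replicate 2 and both G12V libraries at percentiles 36.8, 45.6 and 1.5, and the site at +35.7 kb in both replicate 2 libraries at 58.3 and 59.6. All 3 DUSP4 sites matched the motif core without a mismatch. The intronic motif lay on the strand opposite to the gene and both others on the strand of the gene.

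DUSP5, the nuclear phosphatase specific for ERK, had 4 CTCF sites, and all 4 were listed in G12V replicate 2 alone. The first lay in an intron at +1.8 kb, and the others between the gene and SMC3, a cohesin subunit gene, at +38.1, +49.5 and +59.3 kb. Their percentiles in that list were 36.9, 35, 36.2 and 9.79, on 26, 21, 21 and 17 fragments. No peak was called there in G12V replicate 1 or in either MCF10A library. Sites of G12V replicate 2 alone made up 25.4% of all CTCF sites, and that list was also the longest, so these 4 sites cannot be told apart from a difference between libraries. Of their sequences, those at +49.5 kb and +59.3 kb held the motif and the other 2 did not.

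SPRY2, a Sprouty protein induced by growth factors, had 1 CTCF site, 1887 bp before its start. It was among the strongest peaks in 3 libraries, at percentiles 95.5 and 84.1 in MCF10A and 94.4 in G12V replicate 2, while in G12V replicate 1 it stood at 10.8. At calling depth the summits held 27.2, 39, 19.9 and 52.5 fragments, and the local background that the peak caller had set against them was 1.33, 2, 4 and 1.43 reads, so the low rank in G12V replicate 1 came with the fewest fragments and the highest background. The G12V mean of 52.6 ± 59.1 and the MCF10A mean of 89.8 ± 8.06 (SD, n = 2 each) gave an exact permutation p of 0.667. In the other 3 libraries its percentile lay between 84.1 and 95.5.

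SPRED1, mutated in Legius syndrome and a partner of neurofibromin, had no CTCF site at its promoter. Both sites lay at the far end of the gene, one in the 3′ UTR at +101.7 kb and one beyond it at +137.3 kb. The first was in the replicate 2 libraries, at percentile 67.2 in MCF10A and 93.1 in G12V cells, with 26 and 48 fragments. The second was at percentile 93.7 in MCF10A replicate 2 and at 72.3 and 60.1 in the G12V libraries, with 39, 20 and 35 fragments. Neither was listed in MCF10A replicate 1. SPRED2 had an intronic site at +49.8 kb and a site at +167.3 kb in an intron of ACTR2, both in MCF10A replicate 2 alone, at percentiles 28 and 32.2 on 21 and 17 fragments. Sites of that library alone were 3.37% of all CTCF sites and 3 of the 17 near these genes, the third being the weak one inside DUSP1.

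**Figure D3:**
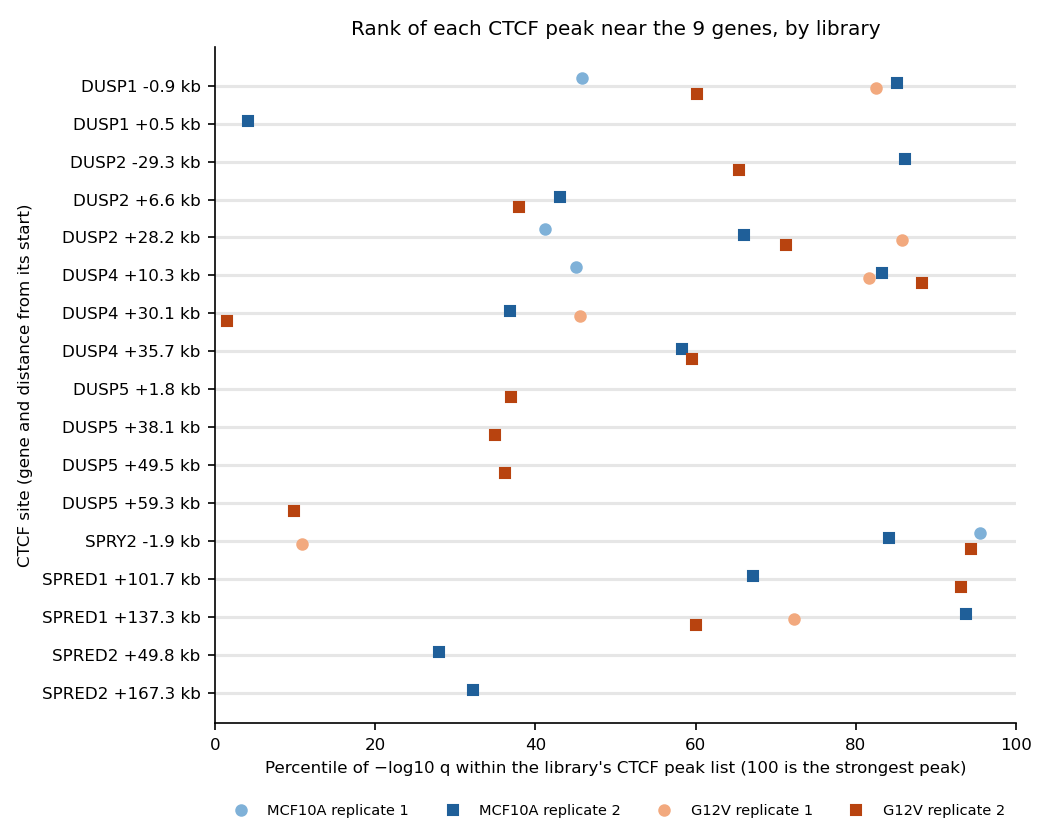
Percentile of each CTCF peak within its library's list (horizontal axis, 100 is the strongest by −log10 q) for the 17 sites (vertical axis), 1 point per library that listed the site. At DUSP2 +28.2 kb both G12V points lie above both MCF10A points, at the other 3 sites of all libraries they overlap, and the SPRY2 point of G12V replicate 1 lies at 10.8 against 84.1 or more in the other 3.

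Taken over the 4 sites of all libraries, the MCF10A replicates had median percentiles of 45.4 and 83.7 and the G12V replicates of 82.1 and 79.8. Over all 8006 shared CTCF sites the medians were 60.1, 72.9, 59.8 and 80 in the same order. At these 4 sites MCF10A replicate 1 thus lay below its median over the shared sites. MCF10A replicate 2 and G12V replicate 1 lay above theirs, and G12V replicate 2 was close to its own. The means of 64.6 ± 27.1 and 81 ± 1.63 (SD, n = 2 each) differed by 16.4 (two-sided exact permutation test, p = 1). Without MCF10A replicate 1 the difference was -2.71, so its direction rested on that library.

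**Figure D4:**
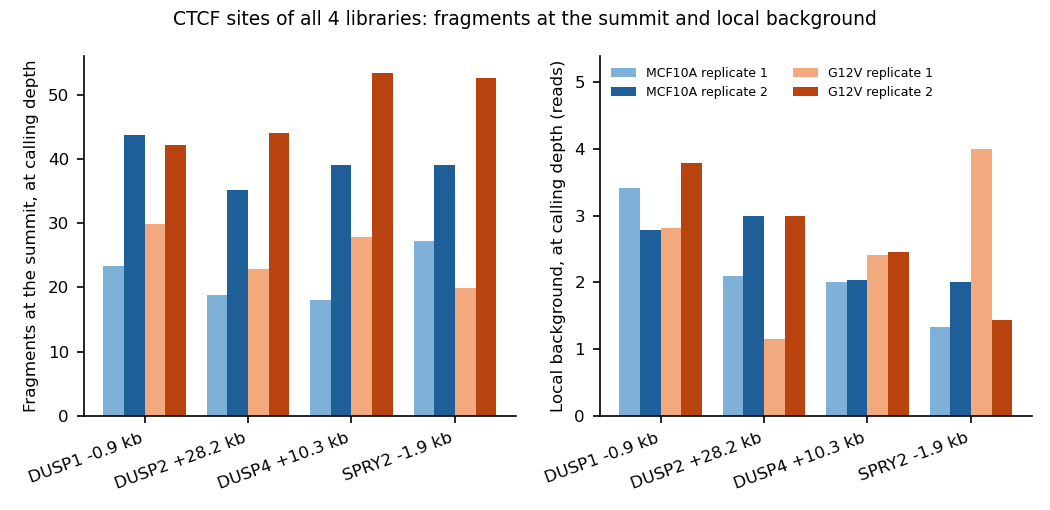
Fragments at the summit (left) and the local background of the peak caller in reads (right) at the 4 CTCF sites listed in all libraries, 1 bar per library. Both are at the depth at which peaks were called, to which deeper ChIP libraries had been scaled down. At SPRY2 -1.9 kb G12V replicate 1 has 19.9 fragments over a background of 4, against 27.2 to 52.5 fragments over 1.33 to 2 in the others.

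DUSP6, the ERK phosphatase of the cytoplasm, and SPRY4, a second Sprouty gene induced by ERK, had no CTCF peak in the window in any library. The nearest CTCF site lay 172 kb from DUSP6, at the promoter of GALNT4, in MCF10A replicate 1 and G12V replicate 2. For SPRY4 it lay 165 kb away in an intron of NDFIP1, in MCF10A replicate 2 and both G12V libraries. The median gene of the genome had a CTCF site 2.5 kb from its body.

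No p53 peak of any library came within 50 kb of any of the 9 genes, whereas 18.9% of all protein-coding genes had a p53 site at that distance. A share of that size in so few genes leaves little room below it, so the 0 describes these windows and is not read as a depletion. The counts were 0 of 1718, 0 of 885, 0 of 477 and 0 of 2619 peaks, which allow shares of each list of up to 0.175%, 0.339%, 0.629% and 0.115% (3 counts of the total, counting error only). These limits are wide for windows that covered 1.19 Mb of 3096 Mb. All 4 libraries had peaks at textbook p53 targets, which were not among the preset gene lists. The best peak within 10 kb of CDKN1A ranked 13, 27, 11 and 3, and that near MDM2 44, 243, 14 and 5, in the same order of libraries. p53 binding near the feedback genes was thus not detectable at the peak caller's threshold in Nutlin-treated cells of either kind, and weaker binding could not be measured from lists of peaks.

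The nearest p53 sites were outside the windows, at a median of 243 kb for the 9 genes against 250 kb for all protein-coding genes. DUSP1 and DUSP5 had theirs at 97.7 kb, in an intron of ERGIC1, and 98.9 kb, both in G12V replicate 2 alone at ranks 1118 and 2582 of 2619. For DUSP6 it was at 119 kb, again in that library alone, at rank 1552. SPRED2 and SPRY4 had sites of 3 libraries, both MCF10A libraries and G12V replicate 2, at 106 kb and 243 kb. The strongest was that of DUSP4, 420 kb before the gene, in all 4 lists at ranks 51, 90, 12 and 15. SPRED1, SPRY2 and DUSP2 had none within 1000 kb, the distances being 1199, 1826 and 2094 kb. The sites of SPRY2 and DUSP2 were, like those of DUSP1, DUSP5 and DUSP6, in G12V replicate 2 alone, at ranks 2356 and 1817. Sites of that library alone made up 38.5% of all p53 sites. The SPRED1 site, nearest to THBS1, was the only site among those nearest to the 9 genes found in both MCF10A libraries and neither G12V library. That class held 2.18% of all p53 sites. The site ranked 524 of 1718 and 766 of 885, on 28 and 11 fragments.

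**Figure D5:**
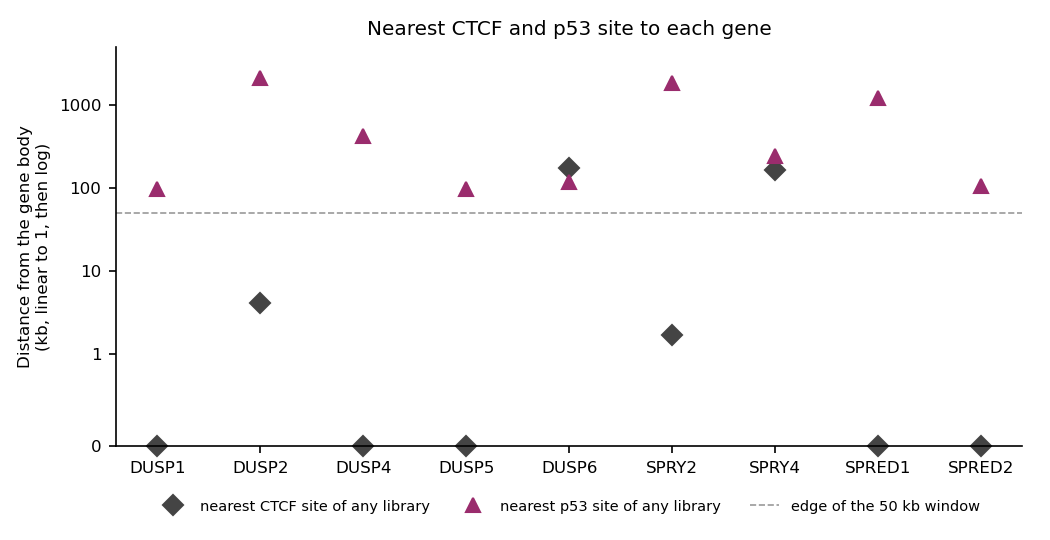
Distance from the body of each gene to the nearest CTCF and p53 site of any library (vertical axis in kb, linear up to 1 and logarithmic above), with the edge of the 50 kb window as a dashed line. All 9 p53 points lie above the line, from 97.7 to 2094 kb, and 7 of the 9 CTCF points lie below it.

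The sequence of the windows was searched for the p53 motif as well, as a pair of adjoining half-sites, neither of which may lose its central C or G. Matches with 0 or 1 mismatch, of which the genome held 550 and 2953 (0.178 and 0.954 per Mb), were absent from the 9 windows. At such rates few would fall in 1.19 Mb of window, so their absence is not read as a lack. Of those genome-wide matches 50% and 19.6% lay in a p53 site of any library. Matches with 2 mismatches numbered 5 near the 9 genes, 4.2 per Mb of window against 5.91 per Mb of genome. There were 2 upstream of DUSP1 at 17.5 and 35.2 kb, 1 in a SPRED1 intron, 1 in a SPRED2 intron and 1 at 2.0 kb before SPRED2. None lay in a p53 peak, and 4.92% of the 18304 matches of that kind in the genome did. The match closest to a gene start and that in SPRED1 are given on the strand of the gene, with the 4 core letters of each half-site in capitals.
SPRED2 -2.0 kb, chr2:65661737-65661776, minus strand: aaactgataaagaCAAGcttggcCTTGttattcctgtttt
SPRED1 +76.2 kb, chr15:38621236-38621275, plus strand: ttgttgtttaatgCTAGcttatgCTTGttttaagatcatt

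Other genes of the pathway were counted from lists fixed by name, to be read against the 85.5% of all protein-coding genes with a CTCF site in the window and the 18.9% with a p53 site. Among 8 other phosphatase, Sprouty and Spred genes, 8 had a CTCF site in the window and 2 a p53 site. The p53 site at DUSP8, a phosphatase of JNK and p38, lay 4.8 kb before the gene in G12V replicate 2 alone at rank 1014. That at DUSP16, another JNK phosphatase, was in both MCF10A libraries and neither G12V library, a class of 2.18% of all p53 sites. It ranked 780 of 1718 and 880 of 885, so it was among the weakest peaks of the second list. Among 16 genes of the RAS-ERK cascade and its GTPase-activating proteins, 12 had a CTCF site and 7 a p53 site (RASA1, BRAF, HRAS, KSR1, NF1, GRB2 and MAP2K2). None of these p53 sites was in all 4 libraries, a class of 11.1% of all p53 sites. Of all protein-coding genes, 2.4% had a p53 site of that class in the window. The best ranked of the cascade sites was in NF1, which encodes neurofibromin, at ranks 362 in MCF10A replicate 1 and 144 and 126 in G12V cells. Among 8 other targets of ERK signalling, 8 had a CTCF site and 5 a p53 site. The site 3.5 kb into EPHA2, an ephrin receptor gene, was the one p53 site of these lists in all 4 libraries, at ranks 1204 of 1718, 720 of 885, 344 of 477 and 735 of 2619. The p53 sites at HRAS, KSR1, MAP2K2 and EPHA4 were, like that at DUSP8, in G12V replicate 2 alone, and that at GRB2 was in MCF10A replicate 1 alone. Sites of G12V replicate 2 alone made up 38.5% of all p53 sites, so such sites cannot be told apart from a difference between libraries. Whether these lists differ from the 9 feedback genes was not tested. Gene length differed between these lists, with a median of 13627 bp for the 9 genes and 96227 bp for the cascade, and its part in the counts was not tested.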

How the data were processed

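The series holds 16 samples: 8 ChIP-seq libraries, 2 for each factor in each cell type, and 8 inputs, which enter only through peak calling. Per the study's methods, the authors aligned reads uniquely to hg19 with Bowtie and called peaks against the input of each library with MACS2 at default settings. Versions used for the ChIP-seq are not given in the sources used here. The 8 deposited peak lists give, for each peak, a score, a fold enrichment over local background (a ratio), and −log10 p-values and −log10 q-values. Peak numbers run without gaps in every list. No peak ends past a chromosome of GRCh37.

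The members and lists were chosen with earlier results of these data known. Peaks within 50 kb of a gene body (GENCODE release 44 lifted to GRCh37) were counted with pandas, and peaks of 1 factor sharing at least 1 bp were merged into sites. Ranks follow −log10 q, ties taking the best rank. Percentiles compare lists of unequal length, so a library with more weak peaks raises the percentile of its strong ones. Fragments, local background and depth were solved from fold and p-value of peaks with a −log10 p of up to 200, assuming the peak caller's human genome size and the smallest peak width as fragment length. In 3 simulated libraries of 2834 to 2979 peaks at least 99.97% of fragment counts were recovered. The fragments are counting data without molecular identifiers. Libraries were compared by exact two-sided permutation tests over the 4 libraries of a factor, which measure only the spread between libraries. Motifs were sought on both strands in the 150 bp centred on each site's highest-percentile summit: the p53 motif with at most 3 mismatches, the CTCF core with at most 1, the AP-1 motif with none. All 9 genes are named, with every site found in all 4 libraries, every site specific for a cell type and the strongest site of each gene. The remaining sites, the p53 matches in the genome, CDKN1A and MDM2 were added after values were seen. Alternatives were windows of 10 and 100 kb, a −log10 q of at least 5, lists cut to equal length, summits within 200 bp, each library left out, a replicate block, the Spred genes left out and 2 mismatches for motifs. Only the peak lists were used, so a library without a peak has no value at a site.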

Additional observations from a re-analysis of the deposited data

How the results depend on the processing

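The 3 CTCF differences between cell types were recomputed 31 times under alternatives, and 8 of these reversed the direction. Another 35 values were counts or differences of 0 that stayed at 0, which says little of stability. No test could reach 0.05 with 2 against 2 libraries. The difference in CTCF peaks near the 9 genes (1.5, G12V minus MCF10A) was -0.5 with windows of 10 kb, and from -3 to 6 when single libraries were left out. The difference in the share of the list (0.000375 percentage points) was -0.00727 at 10 kb, -0.0076 at 100 kb and -0.00286 at a −log10 q of at least 5, and from -0.0143 to 0.015 without single libraries. The difference in median percentile at the 4 shared sites (16.4) ran from -2.71 to 35.6 without single libraries. The cause of these reversals was not tested, and each main difference was within the spread of libraries. With windows of 100 kb, CTCF sites of all 4 libraries numbered 9 in place of 4, and p53 had 2 peaks, both in G12V replicate 2, a difference of 1 peak or 0.0382 percentage points. The labels tie no culture to a replicate number; replicate 2 had the longer CTCF list in both cell types and the longer p53 list in G12V cells alone. With a replicate block, the same 3 CTCF differences (1.5, 0.000375 and 16.4) had exact p of 0.5, 1 and 1. The counts of 0 p53 peaks, of 0 MCF10A-specific and of 0 G12V-specific CTCF sites were 0 under every alternative run at 50 kb. With 2 mismatches 15 sites held the CTCF motif in place of 12. A p53 median percentile and a count of motifs at p53 sites gave no value, since no p53 site was near the genes. Leaving out a library moved no p53 value from 0.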
